A study of Mus musculus with 6 samples.

Results

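Of 23420 genes in the deposited table, 5 were described here because they were lower in both control libraries than in all 4 treated libraries of activated mouse CD4+ T cells. They are Fgfr3, Fzd7, Aldh5a1, Dqx1 and Ppp1r3c. They were picked by symbol because they are low to moderate genes with this order of the libraries. Their levels against control are therefore a description and carry no test. All 5 passed the filter on low counts, as did 10607 genes in all.

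The cells were CD4+CD62L+ T cells from the spleens of BALB/c mice aged 12 weeks, purified with magnetic beads and activated on plates coated with antibodies to CD3 and CD28. Virus carrying an shRNA was added after 24 h, and medium with IL-2 followed 24 h later. Control cells received a non-targeting (scramble) shRNA. Harmine cells received the same non-targeting shRNA and harmine at 3.7 µM, and Dyrk1a shRNA cells received shRNA against Dyrk1a and no harmine. Per the study, harmine came with the feeding medium, 24 h after the virus. The length of exposure thus differed between the 2 treatments. All cells were harvested 48 h after feeding. Each group had 2 libraries of polyadenylated RNA. The labels do not say whether the 2 libraries of a group came from separate animals or cultures, so p-values measure only the spread between these libraries, which may be technical. Both libraries of a group carried the same i5 index, so index and group cannot be told apart.

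Harmine is a β-carboline alkaloid that inhibits the kinase DYRK1A. DYRK1A phosphorylates many proteins, among them NFAT transcription factors, whose entry into the nucleus after T cell receptor signaling it opposes. The comparison of a small molecule inhibitor with an shRNA against the same kinase asks which transcripts differ from control under both. The 5 genes belong to unrelated systems. Fgfr3 and Fzd7 are cell surface receptors for fibroblast growth factors and for WNT ligands. Aldh5a1 and Ppp1r3c act in metabolism, in the breakdown of GABA and in the storage of glycogen, and Dqx1 is a little studied relative of the DEAH-box RNA helicases.

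The libraries differed in depth in the same direction as the levels of the 5 genes. The control libraries held 1743428 and 1096345 counts, the harmine libraries 3441063 and 3747648, and the Dyrk1a shRNA libraries 2678872 and 3274050. As a result, 1 count stood for 0.628 and 0.844 CPM (the count scaled to the size of the library) in the controls and for 0.264 to 0.383 CPM in the treated libraries. CPM are scaled here by the trimmed mean of M-values (TMM). Dyrk1a, the target of the shRNA, was at 58.4 and 82.7 CPM in the controls, 74.8 and 77.6 with harmine, and 60.2 and 61.9 with Dyrk1a shRNA, so that both shRNA libraries lay between the controls (log2 fold change -0.19, standard error 0.21, edgeR adjusted p = 0.835). Knockdown of the transcript was thus not detected. Dyrk1a had 93 and 98 counts in the controls and 157 and 210 with Dyrk1a shRNA. The confidence interval of its log2 fold change was -0.64 to 0.25. That interval includes no difference, and decreases beyond -0.64 lie outside it. All 8 CD4 T cell markers in the table had counts in every library, with a sum of 2762 to 2950 CPM, and Cd4 itself was at 296 to 382 CPM. Markers of B cells summed to 28.6 to 40.4 CPM, of myeloid cells to 20.0 to 50.2, of CD8 T and NK cells to 42.2 to 72.8, of erythroid cells and platelets to 18.4 to 32.6, and of stromal, endothelial and epithelial cells to 73.1 to 83.1. For none of these lists did the 2 controls both lie below or both lie above all 4 treated libraries.

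Promoters of the members are shown because the genes were chosen for varying together and NFAT proteins are substrates of DYRK1A. Each is 300 bases from RefSeq (GRCm38.p6), 250 before and 50 after the annotated start, written 5′ to 3′ on the gene's own strand. Capitals mark the NFAT core GGAAA, read on either strand as GGAAA or TTTCC, in the first 3 sequences, and the TCF/LEF core CTTTGA and the E-box CACGTG in the last. The table matched 4 of the 5 genes, with 2 starts for Fgfr3, of which the one that holds an NFAT core is printed. Dqx1 was not matched. The sequences lie at chr5:33722056-33722355 (+, Fgfr3), chr1:59481897-59482196 (+, Fzd7), chr13:24937612-24937911 (-, Aldh5a1) and chr19:36736555-36736854 (-, Ppp1r3c).
Fgfr3: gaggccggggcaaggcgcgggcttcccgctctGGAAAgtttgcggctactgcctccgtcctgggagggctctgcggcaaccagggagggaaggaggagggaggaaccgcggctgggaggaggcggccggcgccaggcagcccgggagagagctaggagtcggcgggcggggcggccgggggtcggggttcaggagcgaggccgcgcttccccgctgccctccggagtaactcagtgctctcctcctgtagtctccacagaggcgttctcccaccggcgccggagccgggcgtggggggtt
Fzd7: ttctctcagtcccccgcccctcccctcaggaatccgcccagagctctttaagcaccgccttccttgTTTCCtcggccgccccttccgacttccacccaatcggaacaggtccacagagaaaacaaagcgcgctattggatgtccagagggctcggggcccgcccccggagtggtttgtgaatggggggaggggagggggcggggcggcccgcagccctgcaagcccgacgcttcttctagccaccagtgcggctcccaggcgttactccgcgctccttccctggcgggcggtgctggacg
Aldh5a1: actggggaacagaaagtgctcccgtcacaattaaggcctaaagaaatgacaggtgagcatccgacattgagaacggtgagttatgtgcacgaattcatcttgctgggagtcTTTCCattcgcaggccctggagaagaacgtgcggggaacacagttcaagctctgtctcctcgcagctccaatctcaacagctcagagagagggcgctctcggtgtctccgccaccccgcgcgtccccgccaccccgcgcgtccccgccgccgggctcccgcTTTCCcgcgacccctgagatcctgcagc
Ppp1r3c: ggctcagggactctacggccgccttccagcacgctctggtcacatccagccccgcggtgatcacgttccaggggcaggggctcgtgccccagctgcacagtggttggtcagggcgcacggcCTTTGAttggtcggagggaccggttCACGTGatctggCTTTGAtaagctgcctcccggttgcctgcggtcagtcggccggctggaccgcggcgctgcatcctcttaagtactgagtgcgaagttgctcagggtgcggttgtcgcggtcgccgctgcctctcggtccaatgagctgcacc

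No motif searched was shared by all member promoters. The NFAT core stood once in the Fzd7 promoter, once in the printed Fgfr3 promoter and at 2 positions in that of Aldh5a1, in 3 of 5 member promoters, beside 61.3% of all 32851 promoters. The GC box GGGCGG, on either strand, had 7 matches for Fzd7 and 4 and 2 for the Fgfr3 starts, beside 35.7% of all promoters with at least 1. Ppp1r3c held neither. Its promoter had TCF/LEF cores at -129 and -92 (16% of all promoters hold one) with an E-box between them at -104 (7.15%), and these do not overlap. AP-1 (TGANTCA), the cyclic AMP response element core (TGACGT), the forkhead motif (GTAAACA), the cell cycle homology region (TTTGAA), the core of the palindrome bound by DYRK1A (TCGCGA) and the TATA box (TATAAA), each searched on both strands, had no match in these windows. The 5 promoters were 60.3% to 73.0% G or C, above the median of 52.7% over all promoters. Matches are of letters only and binding was not measured.

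Fgfr3, the receptor tyrosine kinase that restrains growth of cartilage and bone, showed the widest separation of the 5. It spans chr5:33721674-33737068 on the plus strand (GRCm38, the assembly of mm10), with 18 exons in its longest transcript. Each control library held 2 Fgfr3 counts, the harmine libraries 27 and 38, and the Dyrk1a shRNA libraries 20 and 27. In CPM these were 1.26 and 1.69 in the controls, 8.05 and 10.0 with harmine, and 7.66 and 7.96 with Dyrk1a shRNA. No treated library overlapped a control, and the lowest treated library was 4.54 times the highest control. At the depth of the smallest library, the treated counts would correspond to 8.19 to 11.1 against 1.26 and 2 in the controls. The fitted log2 fold change was 2.61 (standard error 0.58) with harmine and 2.40 (standard error 0.60) with Dyrk1a shRNA. These standard errors are approximate, and the Wald test of DESeq2 gave 0.89 and 0.90. Because the controls rest on 4 counts in all, the pooled ratio to control had a wide counting interval, 6.32 (95% interval 2.35 to 23.9) with harmine and 5.44 (1.99 to 20.8) with Dyrk1a shRNA. Intervals of this kind are exact and cover counting error only. Fgfr3 passed the filter through its treated libraries alone, since neither control reached the filter's 3.36 CPM. It shares 998 exon bases with the transcript G630022F23Rik on the other strand, which was not analysed here, and the counting is not stated to use strand.

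Fzd7, a Frizzled receptor that passes WNT signals to β-catenin, had the most counts of the 5, 429 in all, and the controls that differed most. It is a single exon gene at chr1:59482424-59486955 on the plus strand. Its counts were 13 and 23 in the controls, 114 and 140 with harmine, and 68 and 71 with Dyrk1a shRNA. The corresponding levels were 8.16 and 19.4 CPM, 34.0 and 37.0 CPM, and 26.1 and 20.9 CPM. The controls thus differed 2.38-fold from each other, while the lower Dyrk1a shRNA library was only 1.08 times the higher control. Both harmine libraries were above the other 4. The log2 fold change was 1.43 (standard error 0.32) with harmine and 0.82 (standard error 0.34) with Dyrk1a shRNA. These values rested on which control was kept. Leaving out control replicate 1 gave 0.86 with harmine and 0.25 with the shRNA, and leaving out control replicate 2 gave 2.12 and 1.51.

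Aldh5a1 encodes succinic semialdehyde dehydrogenase, the mitochondrial enzyme that passes the last product of GABA breakdown into the citric acid cycle. Its 10 exons lie at chr13:24907579-24937661 on the minus strand. Its counts were 6 and 4 in the controls, 45 and 48 with harmine, and 24 and 27 with Dyrk1a shRNA. This gave 3.77 and 3.38 CPM, 13.4 and 12.7 CPM, and 9.20 and 7.96 CPM. The CPM values of the 3 groups formed 3 separate steps without overlap, and replicates differed little in each. Counting intervals of single libraries did overlap between steps. That of control replicate 2 reached 8.64 CPM, and that of Dyrk1a shRNA replicate 2 began at 5.25 CPM. That of Dyrk1a shRNA replicate 1 reached 13.7 CPM, and that of harmine replicate 2 began at 9.35 CPM. The pooled ratio to control was 3.62 (counting interval 1.88 to 7.79) with harmine and 2.36 (1.18 to 5.22) with Dyrk1a shRNA. The lowest treated library was 2.11 times the highest control. The log2 fold change was 1.84 (standard error 0.43) with harmine and 1.24 (standard error 0.46) with Dyrk1a shRNA, and it stayed between 1.78 and 1.93, and between 1.14 and 1.34, when each library was left out in turn. The antisense gene 4932702P03Rik shares 796 exon bases with Aldh5a1 and was at 0 counts in all 6 libraries. The transcript 9330162012Rik, also on the other strand, shares 203 exon bases with Aldh5a1 and was not analysed here.

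Dqx1, a DEAQ-box protein of the helicase superfamily, lies at chr6:83057844-83067318 on the plus strand with 12 exons. Its expected counts before rounding were 4.69 and 4.19 in the controls, 41.19 and 48.74 with harmine, and 17.96 and 17.02 with Dyrk1a shRNA. In CPM of the rounded counts, it was at 3.14 and 3.38, 12.2 and 12.9, and 6.90 and 5.01. The shRNA libraries were closer to the controls than to the harmine libraries. The lowest treated library was 1.48 times the highest control. By library size alone the controls were at 2.87 and 3.65 CPM, so only 1 reached the filter's 3.36 CPM. Dqx1 therefore also needed its treated libraries to pass the filter. The log2 fold change was 1.94 (standard error 0.46) with harmine and 0.85 (standard error 0.51) with Dyrk1a shRNA, and the pooled ratio with Dyrk1a shRNA was 1.80 with a counting interval of 0.848 to 4.26, which includes no difference. Aup1, on the same strand, ends 36 bases before Dqx1 starts and was at 131 to 195 CPM over the 6 libraries. RSEM gives fractional counts where reads can come from more than 1 transcript, so some reads counted for Dqx1 may belong elsewhere. The log2 fold change of Aup1 was 0.10 (standard error 0.19) with harmine and 0.25 (standard error 0.19) with Dyrk1a shRNA.

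Ppp1r3c encodes a subunit that brings protein phosphatase 1 to glycogen, where the phosphatase activates glycogen synthase. It has 2 exons at chr19:36731731-36736653 on the minus strand. Its counts were 11 and 16 in the controls, 78 and 114 with harmine, and 48 and 47 with Dyrk1a shRNA. The levels were 6.90 and 13.5 CPM, 23.2 and 30.1 CPM, and 18.4 and 13.9 CPM. As for Fzd7, control replicate 2 was higher than control replicate 1, here 1.96-fold, and nearly reached the lower Dyrk1a shRNA library, which was 1.03 times that control. Scaled by library size alone the order of those 2 libraries turned, to 14.6 CPM in control replicate 2 against 14.4 CPM in Dyrk1a shRNA replicate 2. The log2 fold change was 1.44 (standard error 0.35) with harmine and 0.70 (standard error 0.38) with Dyrk1a shRNA. Leaving out control replicate 1 gave 0.98 and 0.23, and leaving out control replicate 2 gave 1.95 and 1.21.

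**Figure D1:**
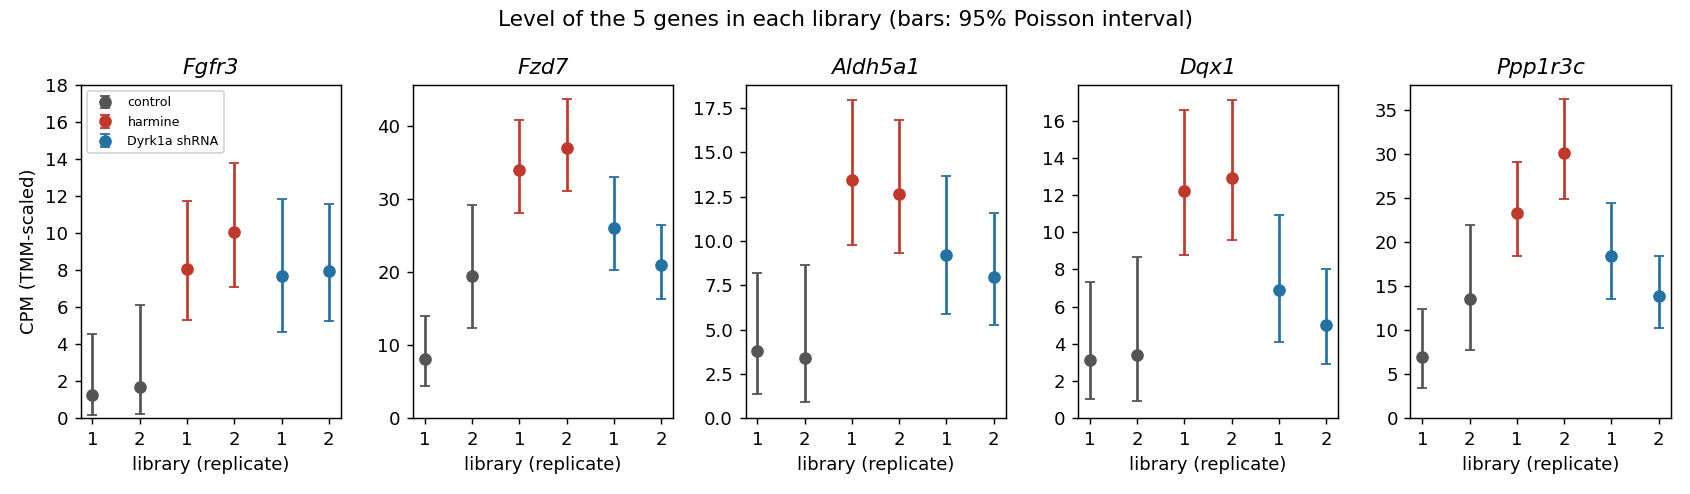
CPM (linear axis from 0, scaled by TMM) of each of the 5 genes in the 2 control, 2 harmine and 2 Dyrk1a shRNA libraries; points are single libraries and bars are exact 95% Poisson intervals, which cover counting error only. Fgfr3 and Aldh5a1 have low controls clear of all treated points, whereas control replicate 2 of Fzd7 (19.4 CPM) and of Ppp1r3c (13.5 CPM) comes close to the lower Dyrk1a shRNA point (20.9 and 13.9 CPM).

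Each of the 5 genes was highest with harmine, intermediate with Dyrk1a shRNA and lowest in the control by group mean. The place of the control was what the genes were chosen for. High harmine values also made a gene more likely to be chosen, so this order is a description. Levels between genes were compared per kilobase of exon, with the exons of all transcripts of a gene joined. For Fgfr3 this length was 7158 bases, against 4245 in its longest transcript, which lowers its value. On this scale the means over all 6 libraries were 6.48 CPM per kb for Ppp1r3c, 5.35 for Fzd7, 2.12 for Dqx1, 1.49 for Aldh5a1 and 0.853 for Fgfr3. Fgfr3, with the largest fold changes of the 5, thus had the lowest level of the 5, at the 5.41 percentile of all genes tested, and Ppp1r3c was near the middle at the 49.7 percentile. The polyadenylated RNA of whole cultures was measured, so that more cells with a transcript and more transcript per cell cannot be told apart.

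The order that defined the genes was common in counts and uncommon in CPM. In the counts as deposited, both controls lay below all 4 treated libraries in 8797 of 10607 genes tested, or 82.9%. After scaling to CPM, 898 genes or 8.47% kept such an order, and the opposite order, both controls above all 4 treated libraries, was held by 833 genes or 7.85%. The opposite order was held by 3 genes, or 0.0283%, in counts. All 5 genes had the order on both scales, which is what they were chosen for. Ranked by the gap between the lowest treated and the highest control library in log2 CPM, Fgfr3 was 2nd of all genes tested, Aldh5a1 3rd, Dqx1 48th, Fzd7 463rd and Ppp1r3c 728th. At the edge, Nrbp2 was just inside with 18.5712 CPM in its lowest treated library against 18.57 in its highest control, and Egln1 just outside with 942.122 against 942.163. A log2 fold change above 1 in both comparisons with control, which share the control libraries, was found in 52 genes or 0.49%, among them Fgfr3 and Aldh5a1.

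At equal depth the median fold changes stayed near their values over the draws in which a gene passed the filter. Single draws varied widely, and the order of the libraries was often lost. All libraries were thinned to the 1096345 counts of the smallest in 21 random draws. Fgfr3 kept both controls below all treated libraries in 21 of 21 draws, Aldh5a1 in 15, Dqx1 in 12, Fzd7 in 8 and Ppp1r3c in 6. Only Fgfr3 kept its order in every draw. The median log2 fold changes with harmine over the draws in which a gene passed the filter were 2.79 for Fgfr3, 1.30 for Fzd7, 1.83 for Aldh5a1, 1.97 for Dqx1 and 1.39 for Ppp1r3c. Those with Dyrk1a shRNA were 2.39, 0.65, 1.32, 0.75 and 0.64 in the same order of genes. Single draws with harmine ranged from 1.76 to 3.45 for Fgfr3, 0.17 to 1.78 for Fzd7, 1.21 to 2.47 for Aldh5a1, 1.22 to 2.55 for Dqx1 and 0.35 to 1.83 for Ppp1r3c. With Dyrk1a shRNA they ranged from 1.51 to 2.89, 0.10 to 1.11, 0.27 to 2.27, -0.48 to 1.68 and -0.12 to 1.11, so that Dqx1 and Ppp1r3c turned below 0 in some draws. Fgfr3 and Dqx1 passed the filter in 14 of 21 draws, Aldh5a1 in 19, and Fzd7 and Ppp1r3c in all 21. Fgfr3 and Dqx1 needed their treated libraries to pass, so the draws that passed favor high treated counts. Their medians may thus be too high and do not support a difference at equal depth.

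**Figure D2:**
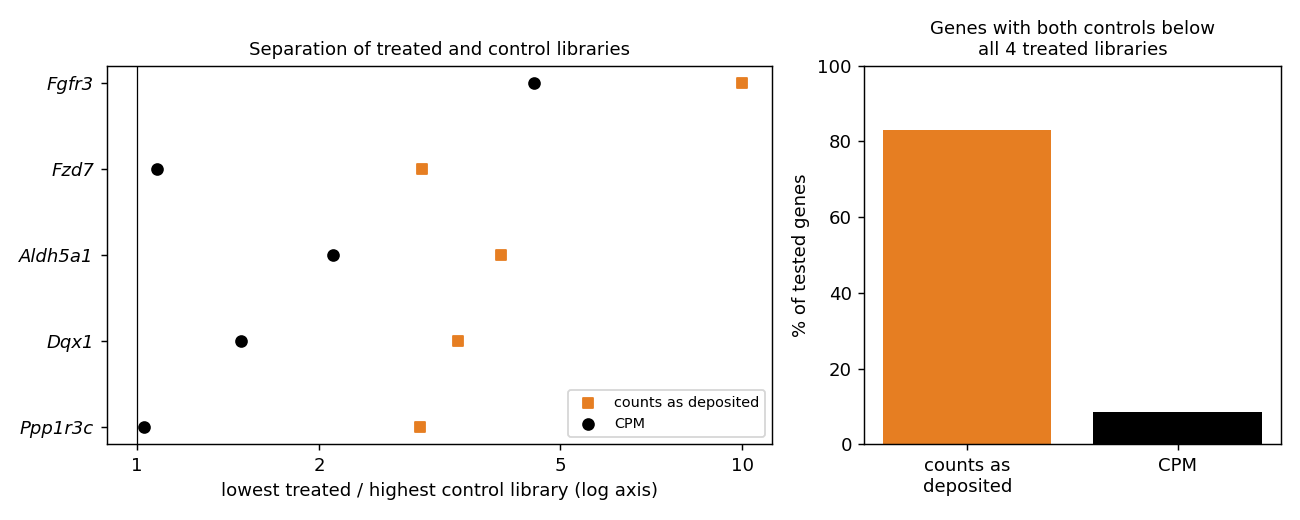
Left, ratio of the lowest treated to the highest control library (log axis) for each of the 5 genes, in counts as deposited (squares) and in CPM (circles); the line at 1 is where the groups touch. Right, percent of the 10607 tested genes with both controls below all 4 treated libraries, 82.9% in counts and 8.47% in CPM; in CPM the ratio of Fgfr3 is 4.54 and those of Fzd7 and Ppp1r3c are 1.08 and 1.03.

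The rule did not compare the treatments with each other, and this difference was tested. The test is not independent of the choice, since all 4 treated libraries had to lie above the controls and a gene with high harmine values was more likely to be chosen. In all 5 genes both Dyrk1a shRNA libraries lay below both harmine libraries, an order that 20.8% of all genes tested had. None of the 5 passed the adjusted threshold in edgeR's quasi-likelihood test, where 1 gene in all (0.00943%) did. Dqx1 had the largest difference, with a log2 fold change of -1.09 for Dyrk1a shRNA against harmine (95% interval -1.82 to -0.37, adjusted p = 0.745). Ppp1r3c was at -0.74 (-1.34 to -0.15, adjusted p = 0.830), Aldh5a1 at -0.61 (-1.27 to 0.05, adjusted p = 0.859) and Fzd7 at -0.60 (-1.15 to -0.05, adjusted p = 0.830). Fgfr3 differed least, by -0.21 (-0.94 to 0.52, adjusted p = 0.962), an interval that still allows a difference of nearly 2-fold. Over the alternatives the adjusted p of the 5 genes ranged from 0.312 to 1.

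**Figure D3:**
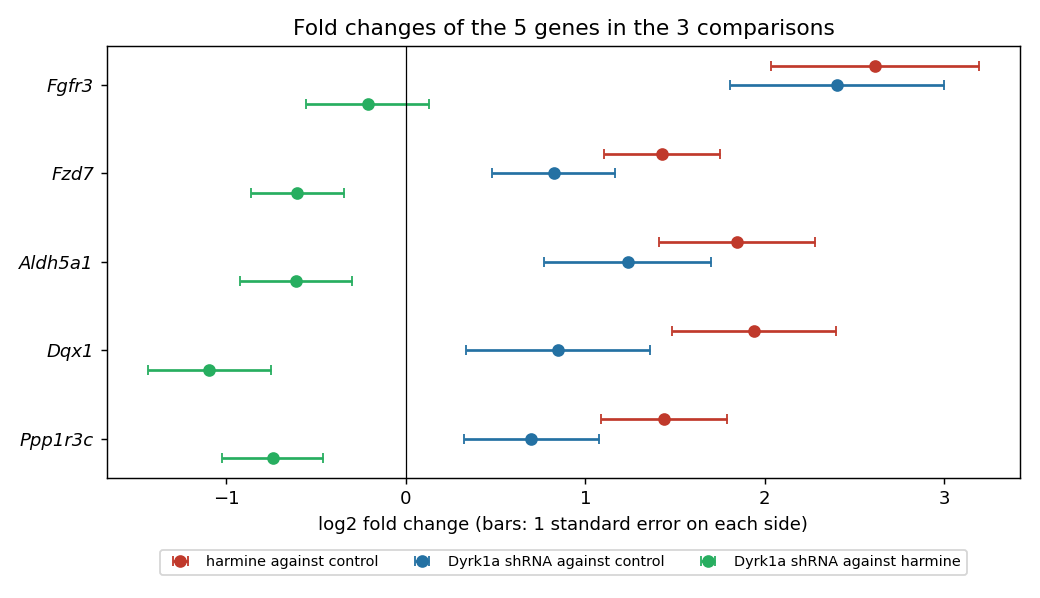
Log2 fold change of each gene with harmine against control, Dyrk1a shRNA against control and Dyrk1a shRNA against harmine, with bars of 1 standard error on each side. All points against control are above 0 because the genes were chosen so, and all 5 points of Dyrk1a shRNA against harmine are below 0, from -0.21 (Fgfr3) to -1.09 (Dqx1).

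The fold changes against control depended most on single libraries in Fzd7 and Ppp1r3c. For Fgfr3, leaving out each library in turn gave 2.39 to 2.81 with harmine and 2.17 to 2.60 with Dyrk1a shRNA. For Dqx1 it gave 1.88 to 1.99 with harmine, and 0.62 without Dyrk1a shRNA replicate 1 to 1.07 without Dyrk1a shRNA replicate 2 with the shRNA. For Fzd7 and Ppp1r3c the controls set the range, as given above. No fold change of the 5 against control turned below 0 with any library left out. That follows from the choice of genes with every treated library above both controls, so it is a description. Control replicate 2 was the shallowest library, and the 2 controls were further from each other over all genes (chi-square per degree of freedom 10.1) than the harmine (4.02) or the Dyrk1a shRNA pair (3.69).

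**Figure D4:**
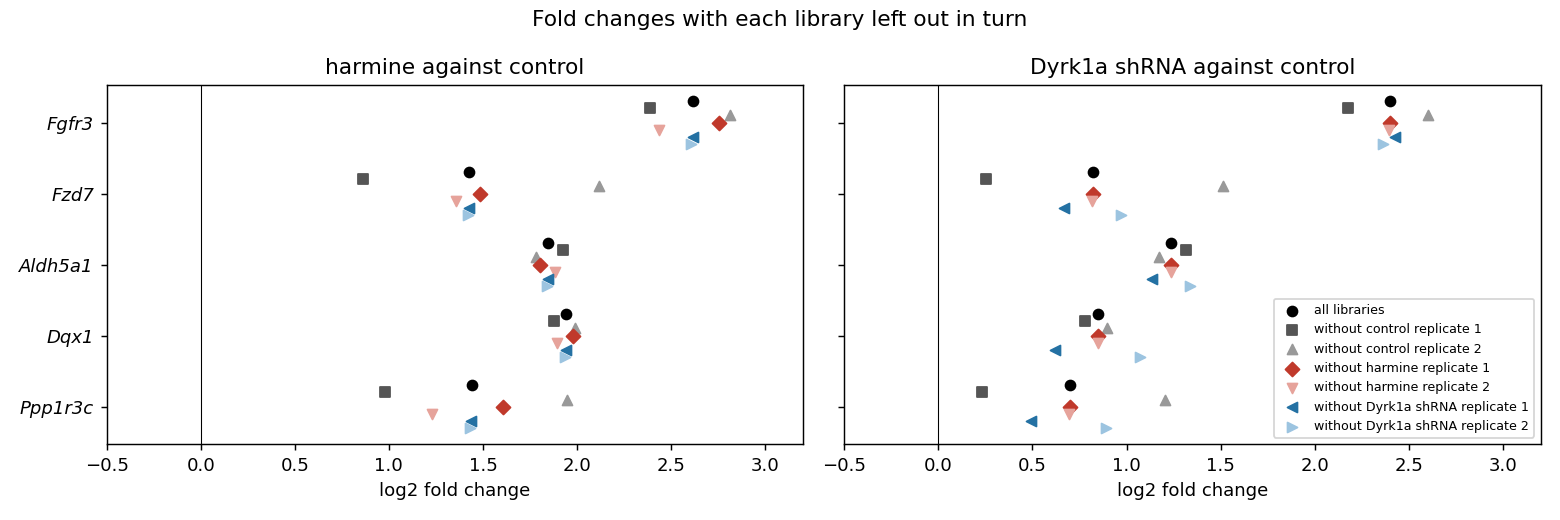
Log2 fold change against control of each gene with all libraries (black circle) and without each library in turn, for harmine (left) and Dyrk1a shRNA (right). The grey points of Fzd7 and Ppp1r3c spread widest, from 0.25 to 1.51 and from 0.23 to 1.21 on the right, whereas all points of Aldh5a1 there lie between 1.14 and 1.34.

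The 5 genes followed each other closely over the 6 libraries, with Pearson r of log2 CPM between 0.83 (Fgfr3 and Ppp1r3c) and 0.98 (Fzd7 and Ppp1r3c). The libraries fall into groups by which the genes were chosen, so r is a description. The genes most like Fgfr3 over the 6 libraries were Adc (r = 0.997), Tspyl4 (0.997) and Fbxl6 (0.995). Those most like Fzd7 were Gid8, Hs3st3b1 and Zfp809 (each r = 0.987). Aldh5a1 was most like Rassf1 (0.986), Sapcd2 (0.985) and Loh12cr1 (0.982). Dqx1 was most like Ccr7 (0.993), Gm11127 (0.986) and Vamp1 (0.981), and Ppp1r3c like Spsb1 (0.999), Hs3st3b1 (0.989) and Fzd7 (0.983). Pearson r takes no account of the size of a difference. Ccr7 was at 490 and 485 CPM in the controls and at 598 and 603 with harmine. Tspyl4 was at 8.16 and 8.44 CPM, and at 10.7 and 10.8 with harmine. Zfp809 differed more, at 1.26 and 3.38 CPM, and at 7.45 and 7.13 with harmine. Of the 10606 other genes, 84 to 144 had r above 0.9 with each member.

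The other genes of the FGF pathway did not share the fold changes of Fgfr3. Of 58 genes of FGF signaling in the table, 14 had no count in any library and 29 were tested beside Fgfr3, and none of these passed the adjusted threshold in any comparison, beside 0.00943% of all genes with harmine and 0.0189% with Dyrk1a shRNA. Their median log2 fold change was -0.02 with harmine and 0.09 with Dyrk1a shRNA, beside -0.02 and -0.01 over all genes. Among the receptors Fgfr1 alone was also tested, at 0.75 (standard error 0.46) with harmine and 0.00 (standard error 0.43) with Dyrk1a shRNA. Fgfr2 had 2 counts over all libraries, Fgfr4 had 1, and Fgfrl1, a receptor without a kinase, had 13. Downstream, the kinase Map2k1 (0.27 and 0.45) and the phospholipase Plcg1 (-0.48 and -0.03) were among those with the smallest unadjusted p, as was Etv4, a transcription factor induced by FGF signals, at -1.67 (standard error 0.79) and -0.04 on 35 counts. Genes known as feedback targets of the pathway were at 0.28 and 0.29 for Spry1 and at -0.06 and 0.13 for Dusp6, with standard errors of 0.24 to 0.29.

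Fzd7 was the only Frizzled with enough counts to be tested. Fzd5 had 29 counts in all, Fzd6 had 15, Fzd3 had 6, Fzd10 had 2 and Fzd8 had 1. Of 84 genes of the WNT pathway 28 had no count in any library, and 29 were tested beside Fzd7. None of these passed, beside 0.00943% of all genes with harmine and 0.0189% with Dyrk1a shRNA. Their median log2 fold change was 0.00 with harmine and 0.06 with Dyrk1a shRNA. The coreceptor Lrp5 was at 0.59 (standard error 0.43) and 0.80 (standard error 0.43), the kinase Csnk1d at 0.13 and 0.34, and Gsk3a, a kinase of the destruction complex and of glycogen synthase, at 0.31 and 0.47 (standard error 0.19 in both). Wls, which carries WNT ligands to the surface, was at -0.58 (standard error 0.39) and 0.41 (standard error 0.36). The transcription factors Tcf7 and Lef1 were abundant, at 220 to 368 and 165 to 235 CPM. Axin2, the usual readout of β-catenin activity, was at 0.08 (standard error 0.36) and -0.45 (standard error 0.38).

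Around Aldh5a1, the enzymes that make and break down GABA differed widely in counts. Abat, the GABA transaminase just before it, had 6 counts over all libraries. Gad1 and Gad2, which make GABA, had 32 and 319 counts. Gad2 was tested, at 0.35 (standard error 0.30) with harmine, -0.38 (standard error 0.32) with Dyrk1a shRNA and -0.74 (standard error 0.27) between them. Of the 35 listed genes of the GABA shunt, the citric acid cycle steps next to it and the aldehyde dehydrogenase family, 22 were tested beside Aldh5a1. None of these passed, beside 0.00943% of all genes with harmine and 0.0189% with Dyrk1a shRNA. Their median was 0.02 with harmine and 0.01 with Dyrk1a shRNA. Suclg2, a subunit of succinyl-CoA ligase, was at 0.54 (standard error 0.23) and 0.41 (standard error 0.24). The other tested aldehyde dehydrogenases lay between -0.82 (Aldh1b1) and 0.50 (Aldh6a1) with harmine and between -0.59 (Aldh1l1) and 0.63 (Aldh6a1) with Dyrk1a shRNA, all below Aldh5a1.

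The relatives of Dqx1 were nearly all expressed, with 17 DEAH-box helicases tested of 18 others in the table. None passed, beside 0.00943% of all genes with harmine and 0.0189% with Dyrk1a shRNA. With Dyrk1a shRNA 15 of 17 were above 0, beside 48.3% of all genes, with a median of 0.25, which was 0.0875 without control replicate 1. With harmine 10 of 17 were above 0 with a median of 0.07, which turned to -0.11 without control replicate 1. Dhx40 had the smallest unadjusted p, at 0.69 (standard error 0.19) with harmine and 0.23 (standard error 0.19) with Dyrk1a shRNA, highest with harmine as Dqx1 was. Dhx30, a mitochondrial RNA helicase, was at 0.21 and 0.42, Dhx32 at 0.19 and 0.42, and Dhx29, which acts in translation initiation, at 0.77 (standard error 0.48) and 0.62 (standard error 0.50).

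Ppp1r3c was not the most abundant glycogen targeting subunit of these cells. Per kilobase of exon, Ppp1r3b was at 46.5 to 63.1 CPM per kb over the 6 libraries and Ppp1r3c at a mean of 6.48, and Ppp1r3b had log2 fold changes of 0.36 (standard error 0.19) with harmine and 0.26 (standard error 0.19) with Dyrk1a shRNA. Ppp1r3f was at 0.52 (standard error 0.37) and 0.49 (standard error 0.38), and Ppp1r3g at -0.46 (standard error 0.42) and -0.60 (standard error 0.43). Ppp1r3d and Ppp1r3e had 5 counts each. Of the 24 tested genes of glycogen metabolism beside Ppp1r3c none passed, beside 0.00943% of all genes with harmine and 0.0189% with Dyrk1a shRNA. With harmine 19 of them were above 0, beside 47.5% of all genes, with a median of 0.20. With Dyrk1a shRNA 14 were above 0 with a median of 0.13. Beside Ppp1r3c, the largest values with harmine and the largest with Dyrk1a shRNA were those of Gaa, the lysosomal enzyme that digests glycogen, at 0.81 (standard error 0.38) and 1.17 (standard error 0.38), and of Epm2a, the glycogen phosphatase laforin, at 0.57 (standard error 0.50) and 1.04 (standard error 0.49). The phosphorylase Pygl was at 0.36 and 0.54 (standard error 0.28 in both), and the synthase Gys1 at -0.16 and -0.03.

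**Figure D5:**
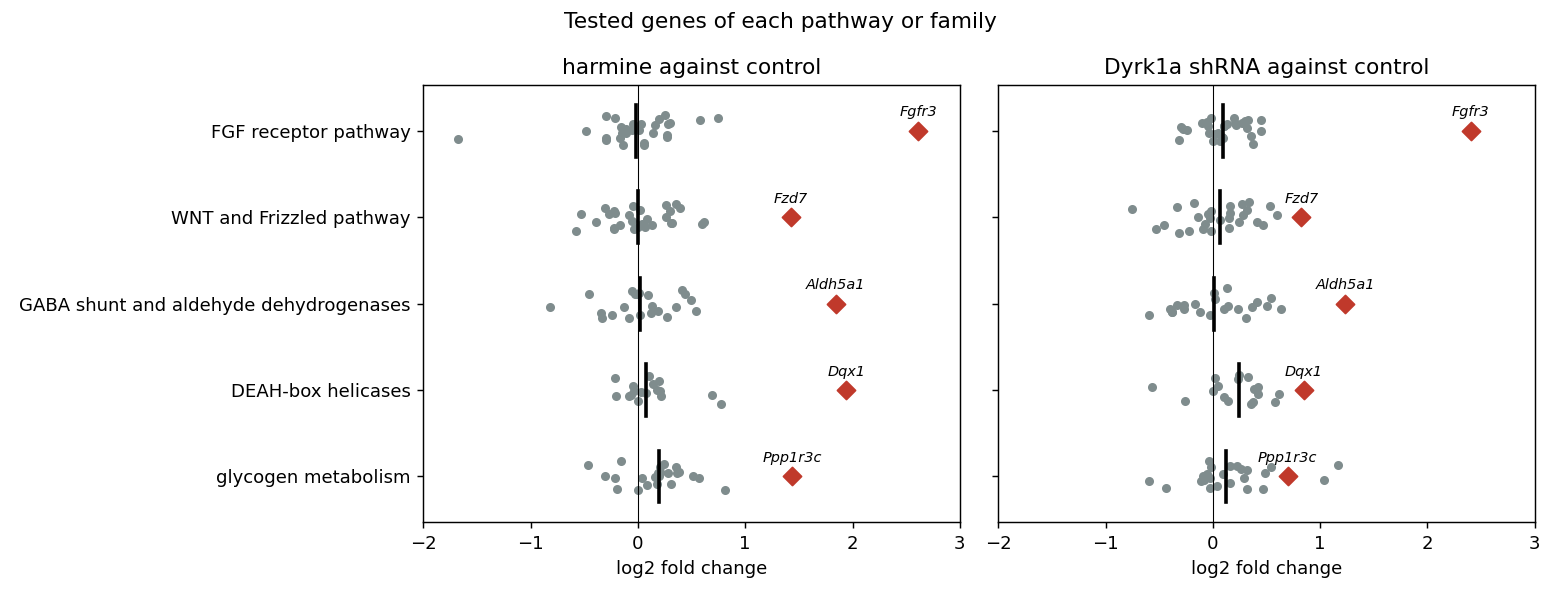
Log2 fold change against control, with harmine (left) and Dyrk1a shRNA (right), of the tested genes of each pathway or family; grey points are genes, black bars their medians without the 5 chosen genes, and red diamonds the chosen genes, placed at a fixed height while grey points are spread for legibility. With harmine each diamond (1.43 to 2.61) lies right of every grey point of its row, and with Dyrk1a shRNA Gaa (1.17) and Epm2a (1.04) lie right of Ppp1r3c (0.70).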

How the data were processed

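Polyadenylated RNA was sequenced from 6 libraries of activated CD4+ T cells in 3 groups of 2. Per the submitters' processing notes, which also name DESeq, reads were mapped by TopHat2 2.0.13 on mm10. The authors deposited expected counts per gene from RSEM, without normalization. The versions of RSEM and the annotation are not given in the sources used here. A deposited library holds 1096345 to 3747648 counts.

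Expected counts were rounded and fitted in edgeR 4.0.16 (R 4.3.3) with TMM scaling, filterByExpr (minimum count 10) and the robust quasi-likelihood test, two-sided, with Benjamini-Hochberg adjustment over 10607 genes and a threshold of 0.05. All libraries entered 1 fit of 3 groups. Counting intervals are exact (95%). Standard errors are the size of the log2 fold change divided by the square root of the quasi-likelihood F statistic. The 95% intervals of fold changes rest on them, so both are approximate. With harmine the Wald test of DESeq2 gave larger standard errors, 0.89 for Fgfr3, 0.42 for Fzd7, 0.64 for Aldh5a1, 0.68 for Dqx1 and 0.46 for Ppp1r3c. The code was tested on simulated data. The members and lists were chosen with earlier results of these data known. The genes named are the 5 members, Dyrk1a, family members, up to 4 further genes per list by smallest unadjusted p against control, and the 3 most correlated genes per member. A gene that this rule takes is not reported here by name. Aup1, Cd4, Pecam1, Epcam, Spry1, Dusp6, Tcf7, Lef1, Axin2 and Gys1 were named after their values were seen. Alternatives were library size alone, size factors and the Wald test of DESeq2 1.42.0, a minimum count of 50 or no filter, a block for the replicate number, only the 2 groups compared, each library left out, thinning (21 draws, a number chosen after seeing the data), and removal of length and GC trends by splines with 4 degrees of freedom. Positions are from GENCODE on GRCm38, where 93.0% of symbols matched, and promoters from RefSeq.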

Additional observations from a re-analysis of the deposited data

How the results depend on the processing

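Thinning is taken here as the median of the draws in which a gene passed the filter. No setting then turned a fold change of the 5 genes. Against control this was largely set by the choice of the genes. None of the 5 passed the test of Dyrk1a shRNA against harmine under any setting. Fgfr3 moved to 2.79 with harmine when the libraries were thinned and to 2.18 with Dyrk1a shRNA when length and GC trends were removed. Single thinned draws turned Dqx1 (lowest -0.48) and Ppp1r3c (lowest -0.12) with Dyrk1a shRNA, and between the treatments Fgfr3 (highest 0.62), Fzd7 (0.52), Aldh5a1 (0.45) and Ppp1r3c (0.59). Fgfr3, Aldh5a1 and Dqx1 have no value at a minimum count of 50, which they did not pass.

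With 1 library left out, the remaining library of its group was assumed to vary like the other groups. With harmine the values then ranged from 2.39 to 2.81 for Fgfr3, 0.86 to 2.12 for Fzd7 and 0.98 to 1.95 for Ppp1r3c. With Dyrk1a shRNA they ranged from 2.17 to 2.60 for Fgfr3, 0.25 to 1.51 for Fzd7, 1.14 to 1.34 for Aldh5a1, 0.62 to 1.07 for Dqx1 and 0.23 to 1.21 for Ppp1r3c. The ends were without control replicate 1 and without control replicate 2, except for Aldh5a1 and Dqx1, where they were without Dyrk1a shRNA replicate 1 and 2.

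Over all genes, edgeR called 1 for harmine, 2 for the shRNA and 1 between both. These counts became 3, 3 and 2 by the Wald test of DESeq2, 20, 28 and 22 with no filter, and 0, 5 and 4 with only the 2 groups compared. With harmine 0 genes passed at a minimum count of 50 or when thinned. Between the treatments 3 passed by library size alone and 0 with length and GC trends removed. With all libraries, 562, 816 and 608 genes were under an unadjusted p of 0.05. With each library left out the counts ranged from 1 to 291 for harmine, 1 to 439 for the shRNA and 0 to 5 between both. The 291 and 439 came without control replicate 2, and without control replicate 1 they were 5 and 3. Both controls lay below all 4 treated libraries in 898 genes, in 8797 by counts without scaling and in 565 when thinned (3 of the 5 genes in the median draw), and in 1170 to 2986 with a library left out, most without control replicate 1 (2986) or 2 (2974), which leave 1 control to lie below the rest.

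The list medians moved as follows. With harmine that of the WNT list was 0.13 with no filter, and that of the GABA list 0.0979 at a minimum count of 50, 0.0746 when thinned and -0.00632 to 0.193 with a library left out. That of the glycogen list was 0.0908 to 0.289. With Dyrk1a shRNA the WNT list ranged from -0.0940 to 0.211 and the GABA list from -0.0315 to 0.140 with a library left out, and the DEAH-box list, at 0.247 with all libraries, from 0.0875 to 0.288. Between the treatments the GABA list was -0.0730 at a minimum count of 50 and -0.0387 to 0.0343 with a library left out.

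The deviations of libraries with the same replicate number correlated at r = 0.12 for control and harmine, 0.0196 for control and Dyrk1a shRNA and 0.24 for harmine and Dyrk1a shRNA. Not every pair was over 0.1, and the labels do not say that a number marks a shared origin, so the numbers were not taken to pair the libraries. With the replicate block, the counts of genes that passed were 0 for harmine, 2 for the shRNA and 0 between both, and Dqx1 was at -1.10 between the treatments (edgeR adjusted p = 0.504).

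With 2 libraries a group and 2 to 23 counts per control library for the 5 genes, small differences were not detectable. The control libraries are the shallowest, so depth and group cannot be told apart.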
